A study of Mus musculus with 4 samples.

Results

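Matrix metalloprotease genes were followed in alveolar macrophages, phagocytes that live in the air spaces of the lung, from WT mice and from Bach2KO mice, which lack the transcription repressor Bach2. The set holds 10 genes of the Mmp family, Mmp2, Mmp3, Mmp8, Mmp9, Mmp12, Mmp13, Mmp14, Mmp19, Mmp25 and Mmp27. Their probes were found through the RefSeq accession that the array design gives for each probe. A probe was found for 9 of the 10 genes, and none matched Mmp27. On the array as a whole 19751 genes had a probe. A gene counted as measured where its probe was well above background, by the scanner software's own mark, on both arrays of at least 1 genotype, which held for 6 of the 9 metalloproteases and for 15122 genes in all.

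RNA was hybridised to 4 1-colour (Cy3) Agilent oligonucleotide arrays, 2 of WT and 2 of Bach2KO, which shared 1 slide. The cells of 8 WT mice were pooled, as were those of Bach2KO mice, which number 4 in the treatment protocol and 3 in the series design text, and both pools were sorted by flow cytometry. Strain, age, sex and sorting gate are not given in the sources used here, nor is the construction of the Bach2KO allele or whether Bach2 is missing from other cells of the mice. Each genotype gave 1 RNA sample, whose 2 parts were amplified and labelled apart, so its 2 arrays are technical repeats with no separate mice behind them. No p-value is therefore given, and each SD (n = 2 arrays) covers amplification, labelling and hybridisation only. In place of a test a rule of size was used, under which a call (higher or lower) needs each of the 4 possible Bach2KO-to-WT array pairs to be 2-fold or more apart, all in 1 direction.

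Matrix metalloproteases are zinc-dependent endopeptidases that cut collagens, elastin, laminins and other matrix proteins, and also free growth factors and chemokines from surfaces. Most are made as inactive proenzymes whose prodomain must be cleaved, and the tissue inhibitors of metalloproteases (Timp genes) block the active enzymes. In the lung, macrophage elastase (Mmp12) is known for its part in the loss of elastic fibres in emphysema models. Several Mmp promoters carry a site for AP-1, the Fos and Jun dimer. Bach2 pairs with small Maf proteins, and the sites this pair binds contain the AP-1 core sequence.

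Levels are log2 processed signal minus the log2 of the array's own 75th percentile, which was 1267 and 1513 signal units in WT, against 1036 and 979 in Bach2KO. The WT arrays had 27126 and 27918 probes well above background, and the Bach2KO arrays had 27368 and 27392. Repeat arrays differed with an SD over measured genes of 0.26 (WT) and 0.21 (Bach2KO) on the log2 scale, and arrays of different genotype with one of 1.16 to 1.19. The Bach2 probe did not check the genotype labels, because it read -6.32 and -6.28 in WT, against -5.16 and -8.13 in Bach2KO and was well above background on 1 array of each genotype. Its place relative to the deletion was not determined. All 19 markers of alveolar macrophages were measured in both genotypes, although 9 of them were called lower in Bach2KO and 1 higher, the largest falls being those of Fabp1 (148-fold), Cidec (68.3-fold), Krt79 (16.8-fold) and the lectin gene Siglecf (5.31 ± 0.10 in WT and 1.66 ± 0.08 in Bach2KO). The 2 arrays of each genotype were neighbours on the slide, so that genotype cannot be told apart from position.

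Of the 9 metalloprotease genes with a probe, 5 were called higher in Bach2KO (Mmp2, Mmp12, Mmp13, Mmp14 and Mmp19) and 1 lower (Mmp8), while Mmp3, Mmp9 and Mmp25 were not measured. Over all genes with a probe, 6.41% were called higher and 4.52% lower, and over measured genes 8.37% and 5.9%. The median difference of the 9 genes (Bach2KO minus WT, log2) was 2.35, against 0.15 over all genes with a probe. Mmp2, Mmp13 and Mmp14 counted as measured through the Bach2KO arrays alone, as their probes were dim on both WT arrays. For such a gene the fold is a lower bound, set on each WT array against the dimmest signal marked well above background, or against the probe's own where that was higher. There were 315 such genes in all, of which 222 were called higher. Since the genes were chosen with earlier results of these arrays known, these counts describe the set.

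**Figure D1:**
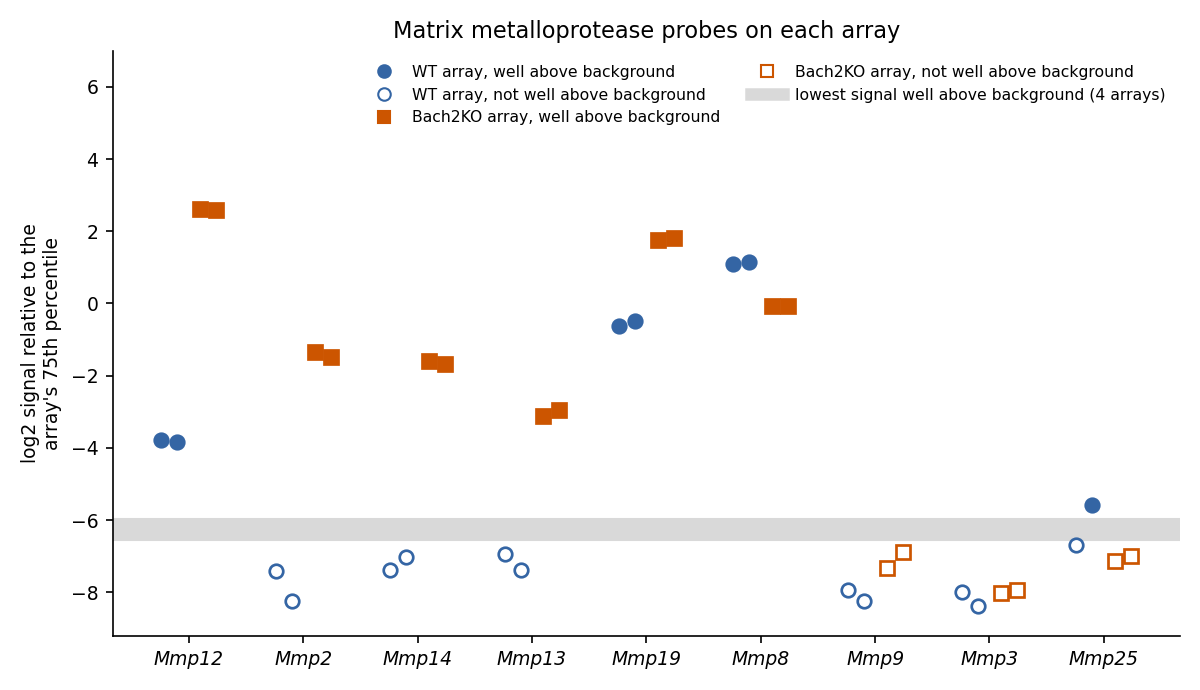
Log2 signal relative to the array's 75th percentile (vertical axis) of the probe that stands for each of 9 metalloprotease genes, 1 point per array, with WT as circles, Bach2KO as squares and open symbols where the probe was not well above background. The 2 arrays of a genotype lie close together for Mmp12, Mmp19 and Mmp8, and the WT points of Mmp2, Mmp13 and Mmp14 are open and lie below the grey band, which spans the dimmest signals well above background over the 4 arrays.

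Mmp12, the elastase that macrophages secrete, was 84.0-fold higher in Bach2KO. The brighter of its 2 probes read -3.77 and -3.82 in WT (-3.80 ± 0.04), against 2.62 and 2.58 in Bach2KO (2.60 ± 0.03). It was above background on each of the 4 arrays. Both Bach2KO arrays thus lay far above both WT arrays, by 6.34 to 6.44 log2 units over the 4 pairs, while arrays of 1 genotype were at most 0.05 apart. This was the 17th largest rise among the 14192 genes detected on each of the 4 arrays. The other Mmp12 probe, designed on the same transcript, was dim on both WT arrays (-8.05 and -8.43) and read -2.73 and -2.71 on the Bach2KO arrays, a rise of at least 12.4-fold. The probes thus shared the direction, and the size was measured on both sides only by the brighter one.

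Mmp13 is the main interstitial collagenase of mice, which cuts fibrillar collagens. Its probe read -6.93 and -7.39 on the WT arrays, not well above background, and -3.12 and -2.96 on the Bach2KO arrays (-3.04 ± 0.12). The 4 pairs differed by 3.80 to 4.43, and the rise was at least 9.89-fold. With normexp background correction, which adds an offset of 50 signal units, the Mmp13 difference was 1.81 in place of 4.12. This is under the log2 bound of 3.31 behind the 9.89-fold.

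Mmp2, or gelatinase A, cuts denatured collagen and the type IV collagen of basement membranes. The Mmp2 probe read -7.40 and -8.24 in WT, against -1.34 and -1.48 in Bach2KO (-1.41 ± 0.10). It was dim on both WT arrays, which were 0.84 apart, and well above background on both Bach2KO arrays, so that Mmp2 was at least 30.7-fold higher. Mmp14 is a membrane-anchored protease that cuts collagen at the cell surface and, together with Timp2, activates the Mmp2 proenzyme. The Mmp14 probe read -7.37 and -7.02 in WT, against -1.59 and -1.69 in Bach2KO (-1.64 ± 0.07). Its WT readings were also not well above background, and Mmp14 was at least 26.2-fold higher. Mmp2 and Mmp14 thus both counted as measured through the Bach2KO arrays alone, which are parts of 1 RNA sample. Ranked by their bound among the 315 genes that were dim in WT, Mmp2 was 39th, Mmp14 44th and Mmp13 71st. With normexp correction the differences of Mmp2 and Mmp14 were 3.03 and 2.80, in place of 6.41 and 5.56, and both genes were still called higher. These lie under the bounds above (4.94 and 4.71 on the log2 scale), which thus hold for the reported background correction and scaling only.

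Mmp19, a secreted protease that cuts basement membrane proteins, was well above background on all 4 arrays. The Mmp19 probe read -0.61 and -0.49 in WT (-0.55 ± 0.09), against 1.77 and 1.82 in Bach2KO (1.79 ± 0.04). The groups did not overlap, and the 5.08-fold rise ranked 293rd of 14192. Scaling to the spike-in probes, which lowers all differences by 0.72, left Mmp19 3.09-fold higher and Mmp12 51.1-fold higher.

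Mmp8, the collagenase best known from neutrophil granules, was the 1 metalloprotease of the set that was called lower. The Mmp8 probe read 1.08 and 1.14 on the WT arrays (1.11 ± 0.04) and -0.07 on each Bach2KO array, a 2.26-fold fall. It was well above background on all 4 arrays, with processed signals of 2678 and 3333 in WT and of 989 and 935 in Bach2KO, and the pairs fell by 1.15 to 1.21. This fall is close to the 2-fold limit of the rule and ranked 669th from the lowest among the 14192 genes. With spike-in scaling it was 3.72-fold.

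**Figure D2:**
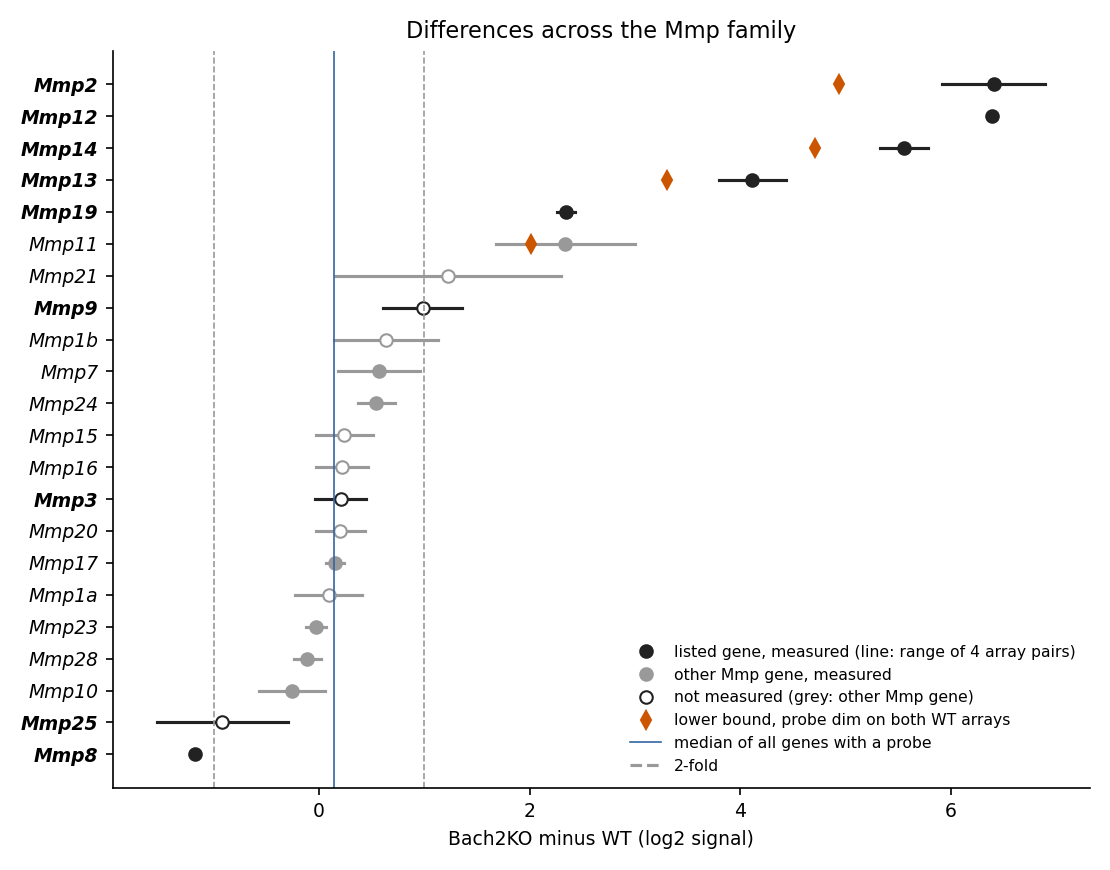
Difference between genotypes (horizontal axis, Bach2KO minus WT, log2 signal) for each Mmp gene with a probe, with the range over the 4 array pairs as a line, the 9 listed genes in black and the other 13 in grey. Open circles are genes not measured, and diamonds are lower bounds of genes dim on both WT arrays; Mmp2, Mmp12 and Mmp14 have the largest rises and Mmp8 the lowest value among the measured genes.

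Gelatinase B (Mmp9), a gelatinase of neutrophils and activated macrophages, was not well above background on any array. Its probe is printed as 10 spots on each array, of which 0 were well above background on either WT array and 1 on each Bach2KO array. The spots averaged -7.93 and -8.24 in WT, against -7.32 and -6.88 in Bach2KO. These readings lie under the lowest signal well above background (-6.56 to -5.98), so no fold is given. The difference of the same arrays was 2.99 in the deposited value table and 0.98 from the scanner signals.

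Stromelysin (Mmp3), which cuts many matrix proteins and activates other proenzymes, was likewise not well above background on any of the 4 arrays. The Mmp3 probe read -7.99 and -8.38 in WT, against -8.03 and -7.93 in Bach2KO, and the groups overlapped. Mmp25, a lipid-anchored surface protease of leukocytes, read -6.68 and -5.59 in WT, against -7.12 and -6.98 in Bach2KO. Only WT array 2 gave Mmp25 a signal well above background, and its difference of -0.92 became 0.16 with normexp and the 75th percentile and -0.17 with normexp and quantile normalization. A dim probe gives only an upper limit to its transcript, and these 3 genes are not shown to be silent in either genotype.

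The gelatinases, the anchored proteases and Mmp19 lie on separate chromosomes, with Mmp9 on chromosome 2, Mmp2 on 8, Mmp19 on 10, Mmp14 on 14 and Mmp25 on 17. Mmp3, Mmp8, Mmp12, Mmp13 and Mmp27 lie together on chromosome 9 with 5 other Mmp genes, in the order Mmp13, Mmp12, Mmp1b, Mmp3, Mmp1a, Mmp10, Mmp8, Mmp27, Mmp20 and Mmp7 (RefSeq annotation of GRCm38.p6). Within this cluster the adjacent genes Mmp13 and Mmp12 were called higher and Mmp8 lower, whereas Mmp10 (-0.25, pairs -0.57 to 0.06) and Mmp7 (0.57, pairs 0.18 to 0.96) were measured and met neither condition. Mmp1a, Mmp1b, Mmp3 and Mmp20 were not measured. Adjacency and neighbours were taken over protein-coding genes only. The nearest measured neighbours outside the cluster were not called either. On the Mmp13 side the differences were -0.25 for Dync2h1, a dynein motor gene, and -0.09 for Dcun1d5. On the Mmp7 side the differences were -0.46 for Tmem123, -0.64 for Birc2 and 0.25 for Birc3, the last 2 being inhibitor of apoptosis genes.

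**Figure D3:**
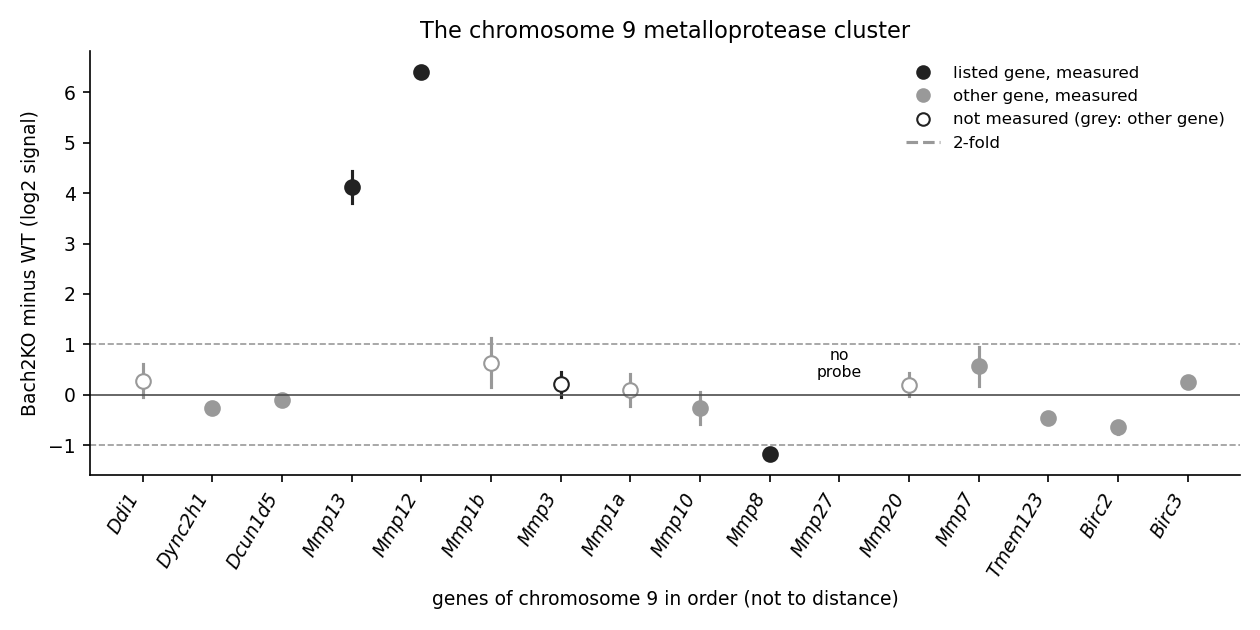
Difference between genotypes (vertical axis, Bach2KO minus WT, log2 signal) for 16 consecutive protein-coding genes of chromosome 9 in their order and not to distance. Lines give the range over the 4 array pairs, listed genes are black and open circles are genes not measured. Mmp13 and Mmp12 stand side by side above the 2-fold line, Mmp8 lies just below the lower one, and the measured genes on both flanks lie between the lines.

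Promoter sequence was read for the cluster because a shared AP-1 site is a known feature of these genes. RefSeq promoter entries (GRCm38.p6) matched 7 of the 10 listed genes, Mmp3, Mmp8, Mmp12, Mmp13, Mmp14, Mmp25 and Mmp27. The 250 bases before each start site were searched on both strands for the AP-1 core TGACTCA, which reads TGAGTCA on the opposite strand. It was found before 3 of the 7, Mmp12, Mmp13 and Mmp3, and in 5.16% of the 27025 genes of the table. The 120 bases before the start site of these 3 genes are shown, from the plus strand on which all 3 are read, with the AP-1 core in capitals. Mmp12 (chr9:7347254-7347373) and Mmp13 (chr9:7272394-7272513) were called higher, while Mmp3 (chr9:7445702-7445821) was not well above background.
Mmp12: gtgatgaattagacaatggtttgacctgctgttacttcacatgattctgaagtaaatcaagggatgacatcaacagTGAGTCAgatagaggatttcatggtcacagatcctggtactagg
Mmp13: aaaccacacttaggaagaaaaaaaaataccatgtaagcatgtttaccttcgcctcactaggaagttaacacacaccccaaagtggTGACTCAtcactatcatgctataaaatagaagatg
Mmp3: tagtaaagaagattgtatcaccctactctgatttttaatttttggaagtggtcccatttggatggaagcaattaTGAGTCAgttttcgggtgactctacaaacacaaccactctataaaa

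The core begins 44 bases before the start site in Mmp12, at 1 of its 2 annotated starts, 35 bases before it in Mmp13 and 46 bases before it in Mmp3. All 10 Mmp genes of the cluster had an entry, and 7 held the core. None of the 8 Mmp genes of other chromosomes in the table held it, Mmp14 among them. Mmp2, Mmp9 and Mmp19 had no entry and were not searched, although Mmp2 and Mmp19 were called higher. The extended site that a Bach and Maf pair can bind was searched as GCTGACTCA or GCTGAGTCA on both strands. It contains the AP-1 core, was present in 0.796% of the genes of the table and in 0 of the 18 Mmp genes with an entry. Mmp12 and Mmp13, which rose, and Mmp3, Mmp1a and Mmp1b, which were not measured, thus share the core, as do Mmp10 and Mmp7, which met neither condition. A match of letters is a description of the window and does not show that a factor binds there.

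The other 13 Mmp genes of the array, listed as the rest of the family, all had a probe, and 7 were measured. Of these, 1 was called higher, 0 lower and 6 met neither condition. The gene called higher was Mmp11, an unusual member that leaves the cell already active, which was dim on both WT arrays (-6.02 and -7.20), read -4.34 and -4.21 on the Bach2KO arrays and was at least 4.04-fold higher. Its second probe differed by 1.27, with pairs from 0.89 to 1.66, and did not meet the rule. The measured genes that met neither condition differed by -0.25 to 0.57, and among them Mmp17 (0.15) and Mmp24 (0.54) encode membrane-type proteases as Mmp14 does.

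Of 8 inhibitor genes reported here 4 were measured, 1 of them called higher, 0 lower and 3 neither. The shares over all measured genes, to be set beside this list and the others, were 8.37% higher and 5.9% lower. The tissue inhibitor gene Timp1 read -3.30 and -3.55 in WT, against 2.10 and 2.10 in Bach2KO, a 46.0-fold rise. Timp1 and Mmp12 were thus both measured on all 4 arrays and rose in the same libraries. Timp2, which takes part in the activation of Mmp2 by Mmp14, differed by 0.56 and met neither condition, although its dimmer probe was 2.65-fold higher on average and met the rule. Timp3, which binds to the matrix, was not measured.

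Among 14 activators and surface partners, 10 were measured, with 2 higher, 0 lower and 8 neither. Plau, the urokinase gene whose product generates plasmin, a protease that activates several Mmp proenzymes, was 4.46-fold higher (-3.16 and -3.32 in WT, -1.18 and -0.99 in Bach2KO). The integrin gene Itgb3 was called higher, but its 2 probes gave very different sizes. The dimmer probe was well above background on all 4 arrays and was 3.34-fold higher, so the gene was detected in WT. The brighter probe was dim in WT and at least 176-fold higher. Cd44, a surface receptor that can hold Mmp9, differed by -0.41 by its brightest probe and was not called, while 2 of its 3 other probes were lower by the rule (-1.80 and -1.52). Furin, which cleaves the prodomain of Mmp14, differed by 0.20 and Plaur, the urokinase receptor gene, by 0.39, and neither was called. With spike-in scaling 2 genes of the list were higher and 1 was lower, against 627 higher and 3175 lower among all 15122 measured genes.

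Of 18 related metalloproteases of the Adam and Adamts families 12 were measured, and 3 were called higher, 1 lower and 8 neither. Adam8, a membrane protease of leukocytes, read -3.23 and -3.18 in WT, against 2.02 and 1.95 in Bach2KO, a 36.5-fold rise. Adam12 (2.97-fold) and Adamts1 (at least 2.36-fold) were called higher and met neither condition with spike-in scaling. Adamts10, known from microfibril formation, fell 4.71-fold.

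Genes for matrix proteins, some of them substrates of these proteases, were measured for 18 of 23, with 7 called higher, 0 lower and 11 neither. Those called higher with the largest differences were Thbs1 (thrombospondin, at least 21.6-fold), Lamb1 (a laminin chain, at least 14.5-fold), Nid1 (nidogen, difference 4.75) and Col4a1 (a basement membrane collagen chain, at least 11.3-fold). The Nid1 probe was well above background on 1 of 2 WT arrays (-4.50 and -8.83), and its other probes differed by 0.26 and 0.67. The substrate genes Eln (elastin) and Fn1 (fibronectin) differed by 0.44 and 0.28 and were not called. With spike-in scaling 6 genes were higher and 1 was lower.

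Among 11 genes of the AP-1 and Ets factors, all measured, 1 was called higher, 2 lower and 8 neither. Jun rose 2.78-fold, from 1.91 ± 0.13 to 3.39 ± 0.01, and was not called with spike-in scaling, where 0 genes of the list were higher and 5 were lower. Over all 15122 measured genes that scaling gave 627 higher and 3175 lower. Fosl2 fell 2.20-fold by its brighter probe, while its other probe, also well above background on all 4 arrays, differed by -0.76 and did not meet the rule. Fos fell 2.03-fold, which is just past the limit.

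**Figure D4:**
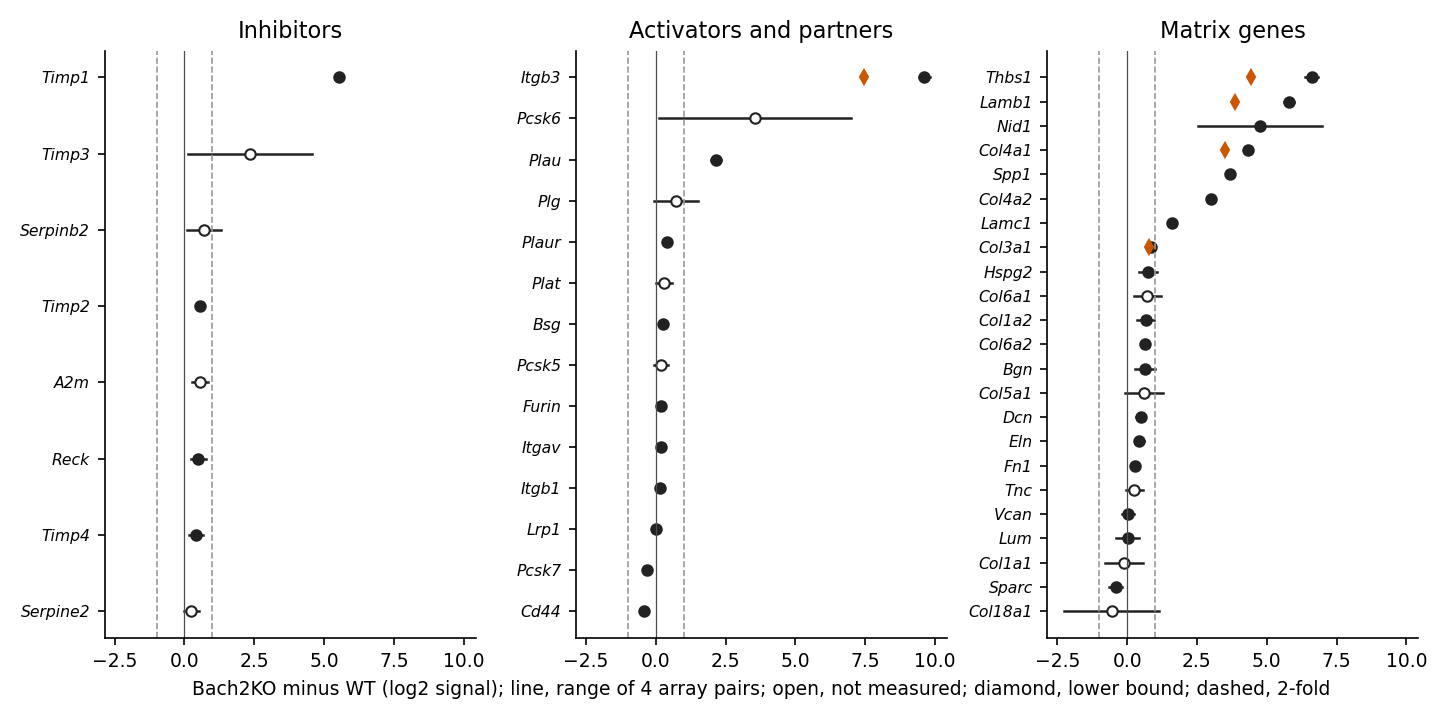
Difference between genotypes (horizontal axes, Bach2KO minus WT, log2 signal) for inhibitors, activators and surface partners, and matrix genes, with the range over the 4 array pairs as a line, open circles for genes not measured and diamonds for lower bounds. Timp1, Itgb3 (its brighter probe) and Plau lie well to the right of the 2-fold line, no measured gene shown lies left of the lower line, and most other measured genes lie between the lines.

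Several of these proteases are also made by fibroblasts, neutrophils or other macrophages, and marker genes of those cells differed between the genotypes too. In bulk RNA, fewer cells of a type and less RNA per cell cannot be told apart. Of 12 fibroblast markers 8 were measured, with 2 higher (Pdgfra, at least 6.33-fold, and Thy1, 6.38-fold) and 0 lower. Their summed linear level, in units of the array's 75th percentile, was 0.520 to 0.565 in WT and 1.07 to 1.23 in Bach2KO. Col1a1, Pdgfrb, Postn and Dpt were at background (not well above it) on all 4 arrays. The lists of fibroblast markers and matrix genes share 5 genes (Col1a1, Col1a2, Col3a1, Dcn and Lum), none of them called. Mmp2, Mmp13 and Mmp14 are known from fibroblasts, and the part of such cells in their rise was not tested.

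Of 12 neutrophil markers with a probe 11 were measured, with 4 higher (S100a9, Retnlg, S100a8 and Cebpe), 0 lower and a summed level of 42.5 to 44.0 in WT and 55.5 to 55.9 in Bach2KO. Most of this sum is Csf3r (38.5 to 39.7 in WT and 29.9 to 31.6 in Bach2KO), and without it the sum was 4.06 to 4.31 in WT and 23.9 to 26.0 in Bach2KO. Most of the remaining Bach2KO sum is in turn S100a8 (log2 levels 0.47 and 0.41 in WT, 4.14 and 4.26 in Bach2KO). Of the 11 measured markers 7 met neither condition. Ngp was at background on all arrays, S100a8 was 13.5-fold higher, and Mmp8, known from the same cells, was lower. Of 13 monocyte and interstitial macrophage markers with a probe 11 were measured, with 4 higher, 1 lower and a summed level of 15.5 to 15.6 in WT and 23.8 to 24.5 in Bach2KO. C1qa was 17.0-fold, C1qc 13.9-fold and C1qb 7.90-fold higher, Ccr2 was lower, and Cd163 and Tmem176a were at background on all arrays. With spike-in scaling 3 monocyte and interstitial macrophage markers were higher and 2 lower. The alveolar macrophage markers summed to 1570 to 1736 in WT and to 1283 to 1319 in Bach2KO, with none at background.

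Of the remaining lists, 3 of 6 measured endothelial markers were higher (Cdh5, Esam and Vwf) and 0 lower (14.2 to 15.2 in WT and 29.7 to 29.8 in Bach2KO, with Tek, Tie1 and Emcn at background). Most of this sum is Vwf (8.18 to 8.75 in WT and 21.5 to 21.8 in Bach2KO). The other 8 summed to 6.01 to 6.42 in WT and 7.87 to 8.35 in Bach2KO. Esam was dim on both WT arrays, and with spike-in scaling 1 endothelial marker, Cdh5, was higher. Of 10 measured epithelial markers 3 were higher, Hopx and Scgb1a1 with the largest rises, and 2 lower, Epcam and Krt19, with Sftpa1, Krt8 and Cldn18 at background. Their sum was 60.5 to 61.8 in WT and 20.8 to 21.7 in Bach2KO, but most of it is Krt19, and the other 12 summed to 4.07 to 4.23 in WT and 6.88 to 6.90 in Bach2KO. Sftpb, also called higher, was dim on both WT arrays. With spike-in scaling 1 epithelial marker, Hopx, was higher, and Scgb1a1 and Sftpb were not called. Of 9 T cell markers 4 were higher, Il7r, Cd3g and Cd3d with the largest differences, and 1 lower, Cd2. Il7r, Cd3g and Cd3d were dim on both WT arrays, with rises of at least 361-fold, 2.67-fold and 6.15-fold. Cd3g was not called with spike-in scaling. None of the 9 markers was at background on all 4 arrays. Their sum of 61.4 to 61.8 in WT and 27.6 to 28.1 in Bach2KO is mostly Cd2, and the other 8 summed to 6.80 to 7.58 in WT and 13.4 to 13.7 in Bach2KO, each with a positive difference. Of 5 measured B cell markers 1 was higher (Cd79b) and 0 lower (0.121 to 0.169 and 0.178 to 0.193, with none at background on all 4 arrays). Cd79b was dim on both WT arrays and at least 2.62-fold higher, and was not called with spike-in scaling. The part of these cells, and of a change within the alveolar macrophages themselves, in the metalloprotease differences was not tested.

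The calls of the metalloproteases were recomputed under 17 other settings of background correction, scaling, filter, threshold and left-out array. The difference of Mmp12 ranged from 5.39 to 6.43 and that of Mmp19 from 1.63 to 2.41, and both were called higher under all 17. Some of these settings loosen the rule or keep a subset of its array pairs, and could hardly remove a call. The dim genes Mmp2, Mmp14 and Mmp13 reached down to 2.85, 2.62 and 1.57, each with normexp correction and quantile normalization. Mmp8 ranged from -1.89 to -1.09.

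**Figure D5:**
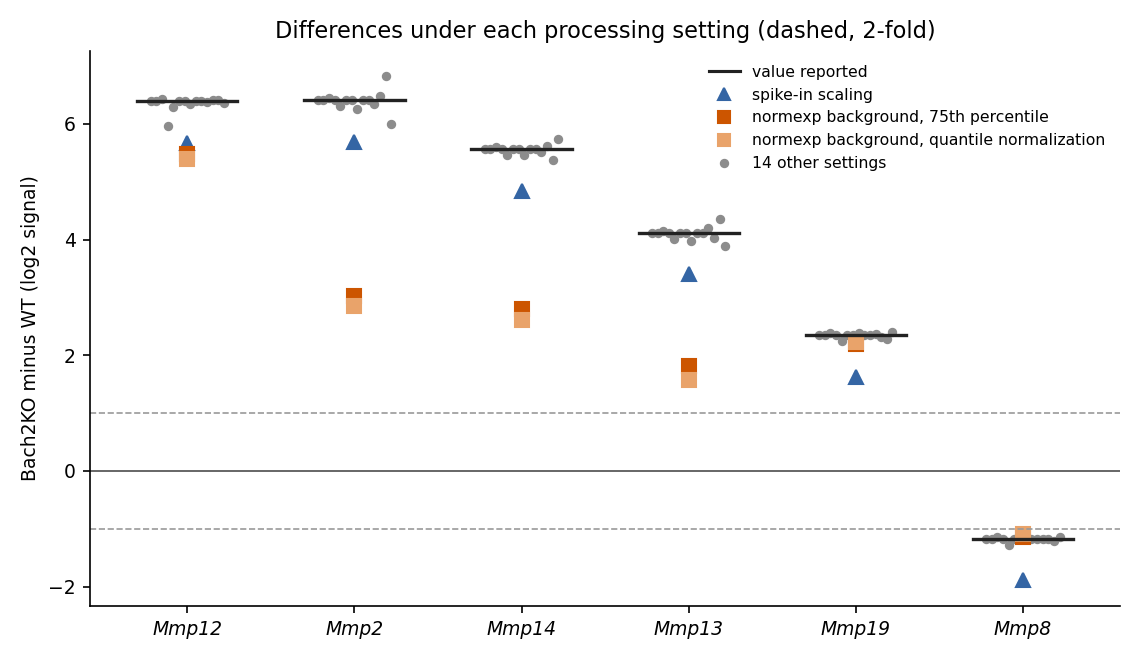
Difference between genotypes (vertical axis, Bach2KO minus WT, log2 signal) of the 6 called metalloproteases under each setting, with the reported value as a line, spike-in scaling as triangles, normexp correction as squares and the 14 other settings as dots. The squares of Mmp2, Mmp14 and Mmp13, which were dim in WT, lie far below their lines, and no point crosses 0.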

How the data were processed

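Per the file headers, the scanner files hold linear spot intensity from Agilent Feature Extraction 10.7.3.1 (the submitters' processing notes give 9.1), with the background subtracted and spatial trends removed array by array and nothing done across arrays. The values in the deposited table are log2. Compared with the scanner files, a column equalled its array's log2 processed signal less a constant, so genes were not centred and brighter probes have higher values. This held to an SD of at most 3.5e-07 over probes printed once, and the columns had medians of -3.58, -3.67, -3.53 and -3.45.

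Groups came from the sample titles. Control spots and outlier spots (109, 120, 133 and 136 of 43020) were left out, repeat spots were averaged as log2 values, and each array's 75th percentile over non-control spots was subtracted. No spot was saturated (0 on each array). Of 39429 probes 26055 had 1 gene symbol through their unversioned RefSeq accession (GRCm38.p6 gene table), 0 had several and 13374 had none. A probe printed as several spots was above background where most of its spots were. The brightest measured probe stood for its gene. The array was designed on mm9, so no probe coordinates are given, and genome coordinates of promoters are those of the RefSeq table. The 2 arrays per genotype limit the technical precision only, and the comparison of genotypes rests on 1 RNA sample of each.

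The comparison was made by the 2-fold rule, with no test. The rule's script was tested on simulated data for probes well above background on all 4 arrays, with 1 probe per gene. The lower bound for dim probes and the choice among probes were not tested in this way. Named genes were all 10 metalloproteases with their value on every array, Bach2, and up to 4 called genes per list by size of the difference (with none called, the 2 brightest). Other genes named (Timp2, Timp3, Furin, Plaur, Eln, Fn1, Mmp7, Mmp10, Mmp17, Mmp24, Cd44, Csf3r, genes shared by lists, the neighbours on chromosome 9 and genes at background) were chosen after their values were seen. The metalloproteases and all lists were chosen with earlier results of these data known. A few list genes are not reported here and are left out of their lists' counts. limma 3.58.1 in R 4.3.3 supplied normexp correction (offset 50) and quantile normalization as alternatives. Further alternatives were median centring, scaling to 9 spike-in probes, the deposited table, outlier spots kept, 2 other filters, thresholds of 1.5-fold and 3-fold, averaging over probes or over arrays, and each array left out in turn. The closing section gives their effect.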

Additional observations from a re-analysis of the deposited data

How the results depend on the processing

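Of 102 values (6 called metalloproteases under 17 alternatives) 98 kept their call, 0 reversed and 23 moved by more than the spread between arrays. The count of higher genes was 5 under 16 alternatives and 2 with the filter that asks for signal above background on 4 of 4 arrays (Mmp12 and Mmp19), because Mmp2, Mmp13 and Mmp14 then drop out. The count of lower genes was 1 under 16 alternatives and 0 with the 3-fold threshold, which Mmp8 does not reach. Leaving out any 1 array kept both counts, but it keeps a subset of the 4 array pairs and can hardly remove a call. Mmp8, the call closest to the 2-fold limit, was -1.21 without WT array 1 and -1.15 without WT array 2. The 1.5-fold threshold, the 2-fold rule on array means and the setting with no filter on dim probes likewise loosen the rule. Calls kept under these settings are among the 98 and do not test the calls. No paired analysis was possible because the 2 arrays of a genotype are parts of 1 RNA sample and the comparison has no test.

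The median difference of the 9 genes, 2.35 as reported, was 1.81 with normexp and the 75th percentile, 1.57 with normexp and quantile normalization, 1.63 with spike-in scaling and 2.99 with the deposited table. There the middle value is that of Mmp9, a gene not well above background on any array. Over all genes, 1266 higher and 892 lower became 627 and 3175 with spike-in scaling (58.7% and 16.5% of calls higher), 2237 and 1933 at 1.5-fold and 695 and 409 at 3-fold. The median over all genes with a probe shifted by -0.72 with spike-in scaling, by -0.14 with quantile normalization and by 0.10 with normexp and the 75th percentile. Of the genes not well above background, Mmp3 (0.21) was -0.51 with spike-in scaling and Mmp9 was 0.09 with normexp and quantile normalization, and their signal over background limits these values.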
